A study of Mus musculus with 18 samples.

Results

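The 29 genes described here encode the transporters and enzymes that break down fatty acids in mitochondria and peroxisomes of the mouse. They were taken from a fixed list of gene symbols, all of which were found among the 26149 genes present in both deposited count tables. By their textbook location, 18 act in mitochondria, 7 in peroxisomes and 4 in both compartments or in the cytosol. The tables hold 18 mRNA libraries from mice with the PPARg T166A mutation, in which alanine replaces a threonine of the nuclear receptor PPARγ, or from wild-type (WT) mice. Wound macrophages came from T166A (6 libraries) and WT (6 libraries) dorsal skin at 6 days after injury, taken from enzyme-digested skin with magnetic beads against the macrophage surface protein F4/80. Bone marrow-derived macrophages (BMDM) came from T166A (3 libraries) and C57BL/6J WT (3 libraries) marrow grown for 7 days with 50 ng/ml M-CSF, the macrophage growth factor. The BMDM labels put replicates 1 and 2 of each genotype in batch B1 and replicate 3 in batch B2, and the skin labels name no batch. The labels give no age or sex, do not say whether the mutation is present in all cells, and do not say whether each library is 1 animal, so the p-values measure the spread between libraries, which may be technical. The extraction protocol attached to both cell sources speaks of adipocytes differentiated in vitro, while the cell type labels name macrophages.

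Mitochondrial β-oxidation imports long-chain acyl groups through the carnitine shuttle and then removes acetyl-CoA units in repeated rounds of dehydrogenation, hydration, a second dehydrogenation and thiolysis. Peroxisomes carry out the same chemistry on very long and branched chains with their own enzymes, and pass shortened products on to mitochondria. Many of these genes are known targets of PPARα and its relatives, which bind DNA as dimers with RXR, and macrophages in the later phases of repair are known for the use of fatty acids as fuel.

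The promoter windows of 3 members are printed because genes of the group that lie side by side or share a nuclear receptor motif had unequal fold changes. RefSeq windows on GRCm38.p6, running from 250 bases before to 50 bases after the annotated start, matched 24 of the 29 genes. Acadm (chr3:153944594-153944893, minus strand), which encodes medium-chain acyl-CoA dehydrogenase, and Cpt1a (chr19:3323051-3323350, plus strand), which encodes the carnitine palmitoyltransferase of the outer mitochondrial membrane, are shown with every match to the nuclear receptor core motif AGGTCA, on either strand, in capitals. Hadhb (chr5:30155003-30155302, plus strand) is shown with the bases in capitals that also belong to the window of Hadha, its neighbour on the minus strand (chr5:30154931-30155230).
Acadm: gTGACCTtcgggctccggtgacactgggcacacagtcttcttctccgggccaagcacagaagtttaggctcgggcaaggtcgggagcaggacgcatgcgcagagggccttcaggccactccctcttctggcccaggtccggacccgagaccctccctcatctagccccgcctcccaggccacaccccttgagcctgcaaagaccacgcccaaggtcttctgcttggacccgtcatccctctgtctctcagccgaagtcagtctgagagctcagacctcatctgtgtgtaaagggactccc
Cpt1a: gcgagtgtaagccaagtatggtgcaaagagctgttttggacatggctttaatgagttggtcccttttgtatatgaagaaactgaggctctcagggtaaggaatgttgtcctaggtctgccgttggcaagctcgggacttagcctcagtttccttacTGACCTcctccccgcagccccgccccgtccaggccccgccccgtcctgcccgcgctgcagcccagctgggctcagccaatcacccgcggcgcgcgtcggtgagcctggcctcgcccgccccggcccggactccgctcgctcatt
Hadhb: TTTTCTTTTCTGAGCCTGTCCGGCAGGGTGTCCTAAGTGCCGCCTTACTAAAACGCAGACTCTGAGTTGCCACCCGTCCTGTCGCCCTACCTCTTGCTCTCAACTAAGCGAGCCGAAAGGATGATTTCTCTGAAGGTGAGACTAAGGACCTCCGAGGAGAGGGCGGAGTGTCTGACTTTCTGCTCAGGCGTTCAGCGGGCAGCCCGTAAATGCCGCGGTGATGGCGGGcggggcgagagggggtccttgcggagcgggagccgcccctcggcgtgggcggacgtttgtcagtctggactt
The Acadm match begins 249 bases before the start and the Cpt1a match 94 bases before it, both as the reverse complement. AGGTCA was found on either strand in 16% of the 25 windows of the 24 genes, against 16.3% of 32851 windows of all genes, so these genes held it about as often as any other. Acadvl and Echs1 had the other 2 matches. AGGNCA repeated in the same direction with 1 base between the copies, the arrangement bound by PPAR and RXR dimers, was in 0 of the 25 windows and in 0.381% of all windows, and no match says only that these letters are not in the window. Hadha and Hadhb, which encode the α and β subunits of the mitochondrial trifunctional protein, start 273 bases apart on opposite strands and share 228 bases of their windows.

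All 29 genes passed the filter on low counts in both cell sources. Levels are given as CPM, read counts brought to a common library size with the trimmed mean of M values (TMM). Changes are log2 fold changes of T166A over WT from the quasi-likelihood test of edgeR, with p-values adjusted by the Benjamini-Hochberg method over every gene tested and read at 0.05. Gene totals were 29357354 to 38774475 counts per skin library and 40072513 to 44152639 per BMDM library.

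In the skin wound fraction, 15 of the 29 genes were higher in T166A than in WT and 0 were lower. Over all 15473 genes tested, 12.7% were called higher and 13.2% lower. The 15 comprised 13 of 18 mitochondrial genes, 2 of 7 peroxisomal genes and 0 of the 4 others. The median log2 fold change was 0.23 for the mitochondrial genes, 0.02 for the peroxisomal genes and 0.02 for the others, against 0.01 for all genes tested. Differences between single genes or between compartments were not tested. At an unadjusted edgeR p under 0.05, 18 of the 29 genes were higher and 0 lower. Among all 15473 genes, 5704 reached that level, counting both directions. DESeq2 and limma-voom each called 15 of the 29 higher and 0 lower. Across all genes, the calls by DESeq2 were 2105 up and 2244 down. Those by limma-voom were 2258 up and 2294 down. In bulk RNA, a larger number of cells that express these genes and more RNA per cell cannot be told apart. Scaling to the total count alone, chosen after seeing the data, called 20 members higher and 0 lower in skin, and moved the calls over all genes to 3357 higher and 1308 lower, against 1963 higher and 2048 lower.

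**Figure D1:**
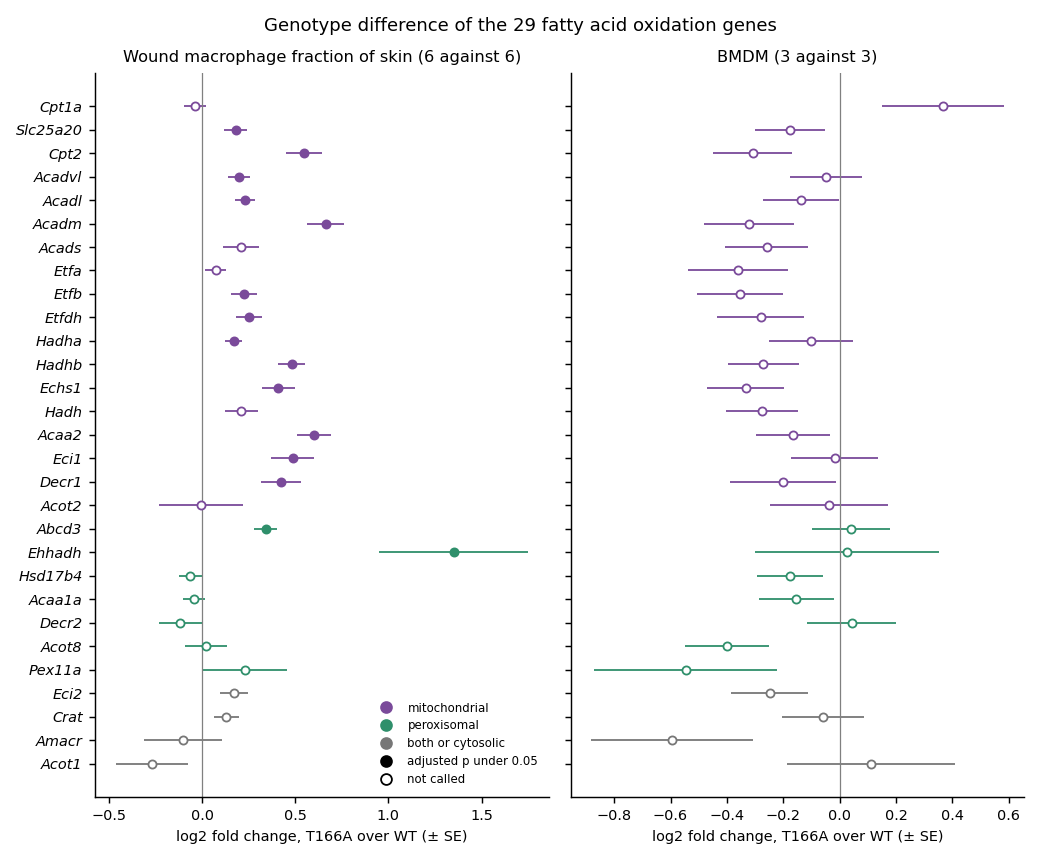
Log2 fold change of T166A over WT (horizontal axis, ± SE) for each of the 29 genes, in the skin wound fraction (left) and in BMDM (right); filled points passed an adjusted p of 0.05. The mitochondrial genes in skin lie mostly right of 0 with 13 of 18 filled, while in BMDM 17 of 18 lie left of 0 and no point is filled.

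Within the carnitine shuttle, the inner steps were called higher, while Cpt1a of the outer step was not. Cpt1b, the muscle form of the outer enzyme and not part of the gene group, was called higher in skin. It averaged 9.82 CPM in T166A skin and 6.73 CPM in WT skin (log2 fold change 0.54, edgeR adjusted p 0.0022, SE 0.13). Cpt2, the inner-membrane carnitine palmitoyltransferase, had 12.2, 13.0 and 16.5 CPM (lowest, median and highest of 6) in T166A skin, against 8.03, 9.22 and 10.6 CPM in WT skin. No T166A library overlapped a WT library, and the log2 fold change was 0.55 (edgeR adjusted p 0.000169, SE 0.10). Slc25a20, the carnitine and acylcarnitine exchanger of the inner membrane, had 27.0, 27.7 and 31.1 CPM in T166A skin, against 23.7, 24.7 and 26.8 CPM in WT skin. Its groups did not overlap either, with a log2 fold change of 0.18 (edgeR adjusted p 0.0345, SE 0.06), but this call was lost when WT replicate 3, 4, 5 or 6 or T166A replicate 1 was left out. Cpt1a, which is held to set the rate of entry, had 75.2, 84.1 and 87.4 CPM in T166A skin, against 73.1, 86.3 and 91.2 CPM in WT skin. These ranges overlapped almost fully, and the log2 fold change was -0.04 (edgeR adjusted p 0.67, SE 0.06), turning to 0.05 under total count scaling.

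Of the acyl-CoA dehydrogenases, which take the first step on chains of decreasing length, the medium-chain enzyme had the largest fold change. Acadm had 24.1, 25.7 and 34.8 CPM in T166A skin, against 13.9, 16.6 and 21.2 CPM in WT skin. The groups did not overlap, and the fold change of 1.58 (log2 0.66, edgeR adjusted p 4.42e-05, SE 0.10) was the largest of the 18 mitochondrial genes. Acadl, the long-chain enzyme, had 83.9, 86.7 and 99.98 CPM in T166A skin, against 71.1, 75.6 and 82.5 CPM in WT skin. Acadvl, the very-long-chain enzyme of the inner membrane, had 55.0, 59.0 and 66.0 CPM in T166A skin, against 48.8, 52.8 and 54.6 CPM in WT skin. Both sets of libraries were separate, with log2 fold changes of 0.23 (SE 0.05) for Acadl and 0.20 (SE 0.06) for Acadvl at edgeR adjusted p-values of 0.00296 and 0.0141. Acads, the short-chain enzyme, overlapped between the genotypes at 12.1, 13.3 and 16.5 CPM in T166A skin, against 9.59, 11.8 and 13.5 CPM in WT skin (log2 fold change 0.21, edgeR adjusted p 0.125, SE 0.10). Acadvl shares 42.9% of its exon bases with Dvl2 on the opposite strand, and the labels do not say whether reads were counted by strand.

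The electron transfer flavoprotein, which takes electrons from all these dehydrogenases, passed the test in its β subunit and not in its α subunit. Etfb, its β subunit, had 26.4, 27.4 and 32.7 CPM in T166A skin, against 22.6, 24.3 and 26.9 CPM in WT skin, and Etfdh, the oxidoreductase that passes the electrons to ubiquinone, had 23.1, 25.8 and 27.2 CPM in T166A skin, against 20.0, 21.3 and 23.1 CPM in WT skin. Log2 fold changes were 0.22 (edgeR adjusted p 0.0212, SE 0.07) for Etfb and 0.25 (edgeR adjusted p 0.00771, SE 0.07) for Etfdh. The Etfb call was lost without WT replicate 3, T166A replicate 3 or T166A replicate 5, and 67.3% of its 50-base windows recur in the overlapping transcript Gm45233, so its count is uncertain. Etfa, the α subunit, had 43.2, 47.8 and 51.5 CPM in T166A skin, against 43.6, 45.3 and 46.8 CPM in WT skin, and its log2 fold change of 0.07 (SE 0.06) did not pass the test (edgeR adjusted p 0.373).

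The enzymes that follow in each round held some of the clearest separations. Acaa2, the thiolase that releases acetyl-CoA, had 24.6, 32.2 and 39.7 CPM in T166A skin, against 20.4, 21.5 and 23.3 CPM in WT skin (log2 fold change 0.60, edgeR adjusted p 4.44e-05, SE 0.09). Echs1, the short-chain enoyl-CoA hydratase, had 14.2, 16.6 and 17.6 CPM in T166A skin, against 9.90, 12.7 and 13.7 CPM in WT skin (log2 fold change 0.41, edgeR adjusted p 0.00146, SE 0.09). In both genes every T166A library lay above every WT library. Hadh, the 3-hydroxyacyl-CoA dehydrogenase, overlapped at 15.0, 16.1 and 19.5 CPM in T166A skin, against 12.7, 14.2 and 16.2 CPM in WT skin (log2 fold change 0.21, edgeR adjusted p 0.0826, SE 0.09).

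The paired subunits of the trifunctional protein, whose promoter windows share the capitals printed above, had unequal log2 fold changes. Hadhb had 43.9, 48.4 and 61.0 CPM in T166A skin, against 34.1, 35.5 and 38.9 CPM in WT skin, a log2 fold change of 0.48 (edgeR adjusted p 2.48e-05, SE 0.07). Hadha had 94.6, 97.4 and 104 CPM in T166A skin, against 82.8, 87.9 and 90.5 CPM in WT skin, a log2 fold change of 0.17 (edgeR adjusted p 0.00942, SE 0.05). Both genes separated the genotypes, and the difference between the 2 fold changes was not tested. Of the 50-base windows of the Hadhb transcript, 62.5% also occur in other transcripts, mostly Gm13910, so its count is the less certain one.

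The mitochondrial auxiliary enzymes for unsaturated chains were higher as well. Decr1, the mitochondrial 2,4-dienoyl-CoA reductase, had 10.1, 10.9 and 15.7 CPM in T166A skin, against 7.79, 8.78 and 9.75 CPM in WT skin (log2 fold change 0.42, edgeR adjusted p 0.00462, SE 0.11). Eci1, the mitochondrial enoyl-CoA isomerase, had 6.92, 10.3 and 11.3 CPM in T166A skin, against 6.34, 6.95 and 7.81 CPM in WT skin (log2 fold change 0.49, edgeR adjusted p 0.00302, SE 0.12). Only T166A replicate 1 of Eci1 fell within the WT range. Acot2, a mitochondrial thioesterase that releases free acids, was low at 1.38, 2.07 and 2.77 CPM in T166A skin, against 0.946, 2.30 and 2.67 CPM in WT skin, with a log2 fold change of -0.01 (edgeR adjusted p 0.989, SE 0.23).

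**Figure D2:**
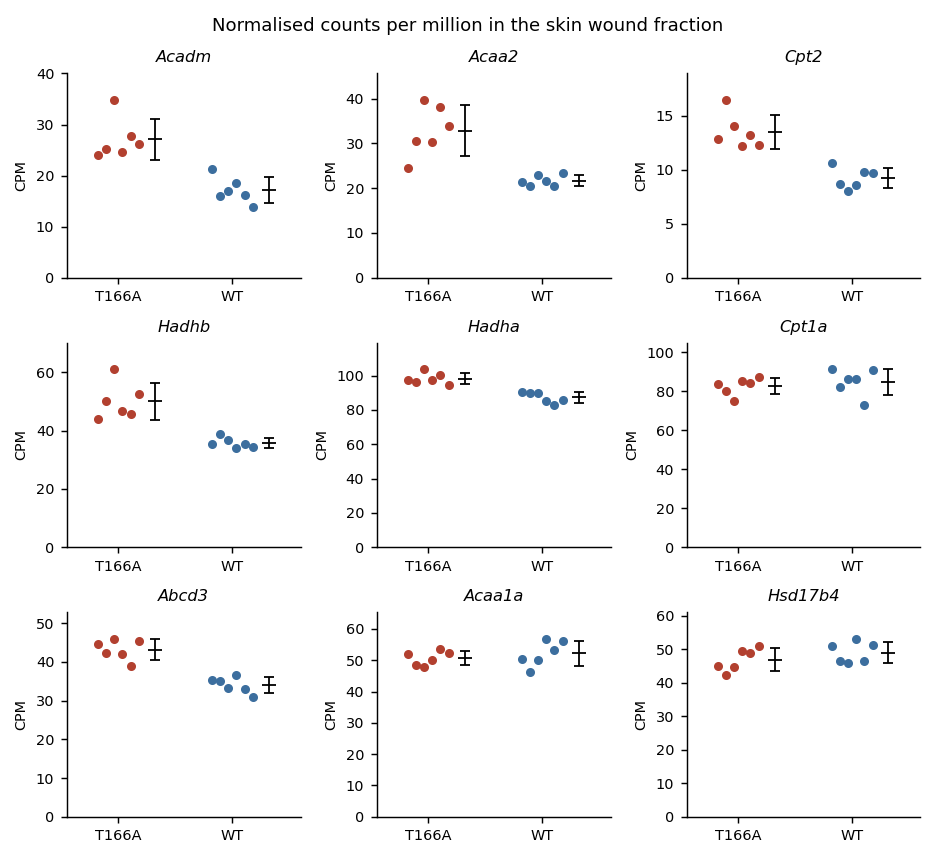
Normalised CPM in each skin library (points; T166A left, WT right) for 9 of the genes, with the mean and SD of 6 libraries as bars. Acadm, Acaa2, Cpt2, Hadhb, Hadha and Abcd3 have every T166A point above every WT point, and Cpt1a, Acaa1a and Hsd17b4 overlap.

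Among the peroxisomal genes, the membrane transporter was called higher and the abundant enzymes of the matrix were not. Abcd3, the transporter that brings branched and long-chain acyl groups into peroxisomes, had 38.8, 43.3 and 45.9 CPM in T166A skin, against 31.0, 34.2 and 36.7 CPM in WT skin. The groups were separate, with a log2 fold change of 0.34 (edgeR adjusted p 0.000201, SE 0.06). Ehhadh, the bifunctional hydratase and dehydrogenase, had 1.76, 2.30 and 3.18 CPM in T166A skin, against 0.0698, 1.01 and 1.82 CPM in WT skin, with a log2 fold change of 1.35 (edgeR adjusted p 0.021, SE 0.40). It rested on 698 reads in all 12 libraries together, and 1 T166A library lay within the WT range.

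Hsd17b4, the other bifunctional enzyme of the matrix, had 42.2, 46.8 and 51.0 CPM in T166A skin, against 45.8, 48.6 and 53.0 CPM in WT skin (log2 fold change -0.06, edgeR adjusted p 0.483, SE 0.06). Acaa1a, the peroxisomal thiolase, had 47.8, 51.0 and 53.7 CPM in T166A skin, against 46.3, 51.9 and 56.8 CPM in WT skin (log2 fold change -0.04, edgeR adjusted p 0.654, SE 0.06). Both ranges overlapped, and both log2 fold changes turned to 0.02 and 0.05 under total count scaling; 34% of the windows of Acaa1a recur in its near copy Acaa1b. Decr2, the peroxisomal dienoyl-CoA reductase, Acot8, a peroxisomal thioesterase, and Pex11a, which promotes peroxisome division, had log2 fold changes of -0.12 (SE 0.12), 0.02 (SE 0.11) and 0.23 (SE 0.23), with edgeR adjusted p-values of 0.499, 0.912 and 0.503.

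The 4 genes of both compartments or the cytosol overlapped between the genotypes. Eci2, an isomerase of mitochondria and peroxisomes, had 15.4, 17.4 and 19.5 CPM in T166A skin, against 14.3, 15.5 and 16.6 CPM in WT skin (log2 fold change 0.17, edgeR adjusted p 0.101, SE 0.08). Crat, the carnitine acetyltransferase, had 30.2, 31.6 and 36.1 CPM in T166A skin, against 26.9, 29.6 and 32.6 CPM in WT skin (log2 fold change 0.13, edgeR adjusted p 0.154, SE 0.07). Amacr, the racemase for branched chains, and Acot1, the cytosolic thioesterase, stayed under 5 CPM in every skin library, with log2 fold changes of -0.10 (SE 0.21) and -0.27 (SE 0.19). Acot1 and Acot2 are near copies, and 33.2% of the windows of Acot1 recur in other transcripts.

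Counted by library, 12 of the 29 genes had every T166A skin library above every WT library and 0 had every one below, against 5.43% and 6.63% of all genes tested. They were 11 mitochondrial genes and Abcd3. The 18 mitochondrial genes together summed to 626 to 705 CPM in T166A skin, against 544 to 581 CPM in WT skin, without overlap. The 7 peroxisomal genes summed to 149 to 169 CPM in T166A skin, against 144 to 168 CPM in WT skin, with overlap.

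**Figure D3:**
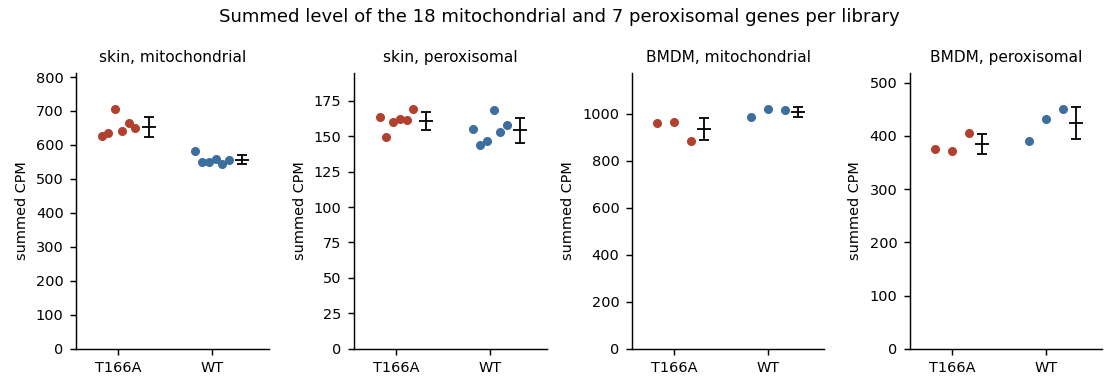
Summed normalised CPM of the 18 mitochondrial and the 7 peroxisomal genes in each library (points; T166A left, WT right) in skin and in BMDM, with mean and SD as bars. In skin the mitochondrial sums of T166A (626 to 705 CPM) lie above those of WT (544 to 581 CPM), and in BMDM they lie below (882 to 967 CPM in T166A, 984 to 1019 CPM in WT).

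Markers of other cell types differed between the same skin libraries. Of 12 white adipocyte markers, 11 were tested, and 10 were higher in T166A and 0 lower. Adipoq, the adipocyte hormone adiponectin, averaged 9.91 ± 2.29 CPM in T166A skin and 0.916 ± 0.375 CPM in WT skin (SD, n = 6 each). The summed level of the list was 501 to 769 CPM in T166A skin, against 477 to 681 CPM in WT skin, and was made up mostly of Fabp4, a lipid carrier that macrophages also express (log2 fold change 0.01, SE 0.10). Of 8 brown adipocyte markers, 6 were higher and 0 lower, with sums of 29.7 to 68.5 CPM in T166A skin, against 5.26 to 11.6 CPM in WT skin. Ucp1, the uncoupling protein of brown fat, averaged 22.7 ± 11.3 CPM in T166A skin and 2.27 ± 0.562 CPM in WT skin (SD, n = 6 each). None of these markers was at 0 in all skin libraries.

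Of 13 skeletal muscle markers, 11 were lower in T166A and 1 was higher, with sums of 37.3 to 50.5 CPM in T166A skin, against 70.4 to 103 CPM in WT skin. The 1 that was higher was Cpt1b, the muscle form of the outer carnitine palmitoyltransferase, at 9.82 ± 1.55 CPM in T166A skin and 6.73 ± 1.12 CPM in WT skin (SD, n = 6 each). Acta1, skeletal actin, averaged 15.9 ± 2.78 CPM in T166A skin and 39.9 ± 4.95 CPM in WT skin (SD, n = 6 each). Of 10 macrophage markers, 7 were lower in T166A and 0 higher, with sums of 12538 to 14477 CPM in T166A skin, against 14664 to 17940 CPM in WT skin, and Lyz2, the most abundant of them, had a log2 fold change of -0.34 (SE 0.06). Of 8 fibroblast and 8 keratinocyte markers, 1 each was lower and 0 were higher. Their sums overlapped, at 5994 to 11128 CPM in T166A skin and 7155 to 11007 CPM in WT skin for fibroblast markers. For keratinocyte markers they were 136 to 253 CPM in T166A skin and 132 to 314 CPM in WT skin. Of 7 sebocyte markers, 2 were higher and 1 was lower, and the most abundant, Soat1, had a log2 fold change of -0.26 (SE 0.05). Soat1 also averaged 446 CPM in T166A BMDM and 433 CPM in WT BMDM, so it is not particular to sebocytes. Of the 2 higher sebocyte markers, 1 is on the brown adipocyte list as well. Of 8 neutrophil markers, 4 were tested, 2 were lower and 0 higher, and sums were 25.7 to 50.6 CPM in T166A skin, against 28.2 to 103 CPM in WT skin. For the brown adipocyte, macrophage, sebocyte and neutrophil lists, their part in the values of the 29 genes was not tested.

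**Figure D4:**
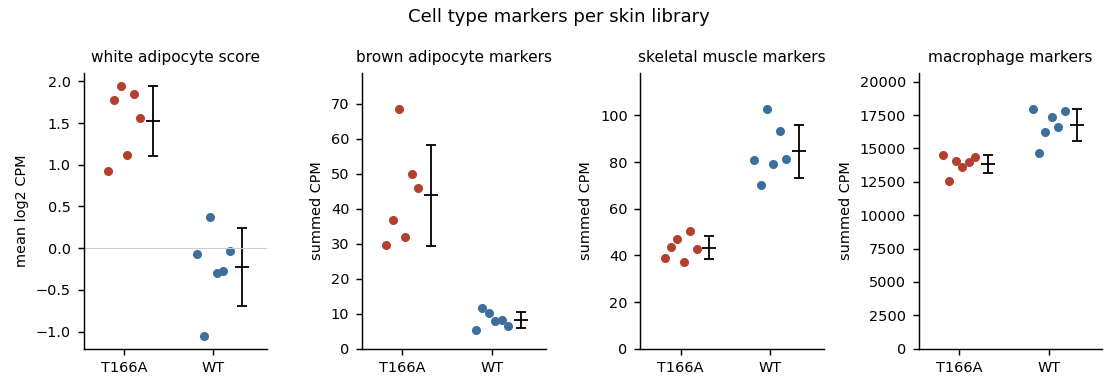
Markers of other cell types in each skin library (points; T166A left, WT right) with mean and SD as bars: the white adipocyte score as a mean of log2 CPM over 10 markers, and summed normalised CPM of the brown adipocyte, skeletal muscle and macrophage lists. In all 4 panels the genotypes do not overlap, with T166A higher in both adipocyte panels and lower in the muscle and macrophage panels.

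With a white adipocyte score (mean log2 CPM of the list without Fabp4 and Lipe) as a covariate, 0 of the 29 genes were called in skin, where 395 genes were called higher and 697 lower over all genes. The score was 0.93 to 1.95 in T166A skin and -1.06 to 0.37 in WT skin, so that score and genotype moved together, and their parts cannot be told apart in these libraries. The median log2 fold change of the mitochondrial genes was then 0.13, and those of Acaa2 and Echs1 were 0.06 and 0.08, while Cpt2 and Hadhb had 0.36 and 0.34. With a skeletal muscle score (0.45 to 0.82 in T166A skin, 1.56 to 2.25 in WT skin) 0 of the 29 were called as well, with a mitochondrial median of 0.35, but over all genes 75 were then called higher and 21 lower, so few genes of any kind passed. With keratinocyte and fibroblast scores, 12 of the 29 were called higher, and Acadvl, Etfb and Etfdh were not, where 1920 genes were called higher and 2065 lower over all genes. Among the 15 genes called higher, the highest T166A library was replicate 3 in 10 genes, and replicate 3 also had the highest Ucp1, 41.4 CPM. Replicate 3 had the highest white adipocyte (1.95) and skeletal muscle (0.82) scores of the T166A libraries too. Its keratinocyte (3.10) and fibroblast (7.30) scores were the lowest of all skin libraries. Which of these goes with the 10 genes was not tested. Without T166A replicate 3, 14 of the 15 were called, the exception being Etfb.

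In BMDM, 0 of the 29 genes passed the test in either direction, while most had small negative log2 fold changes. Over all 13139 genes tested, 0.0609% were called higher and 0.00761% lower by edgeR. Of the 29 log2 fold changes, 24 were negative and 5 positive, with a median of -0.23 for the mitochondrial genes and -0.15 for the peroxisomal genes, against -0.02 for all genes. At an unadjusted edgeR p under 0.05, 3 of the 29 genes were lower and 0 higher, against 1687 of all 13139 genes in either direction. Neither DESeq2 nor limma-voom called any of them, with 0 of 29 by each tool, where over all genes DESeq2 called 253 higher and 147 lower of 11101 and limma-voom 148 higher and 29 lower of 13139. Adipoq, Lep, Plin1, Cidec, Retn, Cfd and Adrb3 of the white adipocyte markers and Ucp1, Cidea and Cox8b of the brown ones were at 0 in all BMDM libraries.

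Every T166A library lay below every WT library in 7 genes and above in 0, against 6.97% below and 6.67% above over all genes tested. Hadhb had 45.8, 52.0 and 53.8 CPM in T166A BMDM (replicates 1 to 3), against 58.9, 61.6 and 62.2 CPM in WT BMDM, with a log2 fold change of -0.27 (edgeR adjusted p 0.416, SE 0.13). Cpt2 had 22.2, 19.7 and 24.3 CPM in T166A BMDM, against 26.1, 27.5 and 28.2 CPM in WT BMDM (log2 fold change -0.31, edgeR adjusted p 0.401, SE 0.14). Slc25a20 had 43.5, 42.0 and 42.7 CPM in T166A BMDM, against 46.7, 49.5 and 48.5 CPM in WT BMDM (log2 fold change -0.17, edgeR adjusted p 0.578, SE 0.12). Acot8 had the smallest unadjusted p of the group, 0.0247, at 16.5, 15.9 and 16.2 CPM in T166A BMDM, against 20.3, 20.9 and 23.1 CPM in WT BMDM (log2 fold change -0.40, edgeR adjusted p 0.323, SE 0.15). Hadh, Acads and Hsd17b4 were the other 3, with log2 fold changes of -0.28 (SE 0.13), -0.26 (SE 0.15) and -0.18 (SE 0.12).

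Several genes that overlapped in BMDM had lower T166A means within each batch. Acadm had 32.7 and 41.0 CPM in batch B1 and 56.9 CPM in batch B2 of T166A, against 40.9 and 54.2 CPM in batch B1 and 66.9 CPM in batch B2 of WT. The T166A mean was below that of WT in each batch, with log2 differences of -0.36 in B1 and -0.23 in B2, and a fitted log2 fold change of -0.32 (edgeR adjusted p 0.44, SE 0.16). Echs1 had 52.4, 50.9 and 60.5 CPM in T166A BMDM, against 56.9, 72.5 and 77.3 CPM in WT BMDM, and Etfb had 46.9, 54.4 and 61.6 CPM in T166A BMDM, against 55.8, 75.2 and 77.1 CPM in WT BMDM. Their log2 fold changes were -0.33 (edgeR adjusted p 0.368, SE 0.14) and -0.35 (edgeR adjusted p 0.376, SE 0.15). Acaa2 had 62.1, 66.6 and 76.1 CPM in T166A BMDM, against 66.6, 80.3 and 82.3 CPM in WT BMDM (log2 fold change -0.16, edgeR adjusted p 0.622, SE 0.13). The difference was negative in both batches in 18 of the 29 genes, against 29.5% of all genes tested. The mitochondrial median was -0.23 in B1 and -0.21 in B2, and the peroxisomal median was -0.11 in B1 and -0.09 in B2, against 0.00 and -0.06 over all genes.

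Cpt1a was the exception among the mitochondrial genes in BMDM, with 214, 181 and 79.2 CPM in T166A, against 149, 101 and 92.9 CPM in WT. Its log2 difference was 0.68 in batch B1 and -0.23 in batch B2, so the batches went opposite ways, and the fitted value was 0.37 (edgeR adjusted p 0.509, SE 0.22). In all, 10 of the 29 genes had opposite signs in the batches, 7 of them positive in B1 and 3 negative in B1. Opposite signs were common over all 13139 genes tested, where 6617 were negative in B1, 7396 in B2 and only 3882 in both. Beside Cpt1a, those positive in B1 were Hadha, Crat, Acot2, Acot1, Abcd3 and Decr2, with log2 differences of 0.08, 0.11, 0.20, 0.40, 0.08 and 0.14 in B1 and of -0.46, -0.39, -0.53, -0.47, -0.04 and -0.12 in B2. Those negative in B1 were Decr1, Acadvl and Eci1, at -0.34, -0.11 and -0.03 in B1 and 0.11, 0.07 and 0.01 in B2. The T166A library of batch B2 also stood apart in the summed level of 8 fibroblast markers, 411 CPM against 7.66 and 10.5 CPM in the other T166A BMDM libraries and 4.57 to 44.4 CPM in WT BMDM, and its part in these values was not tested.

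**Figure D5:**
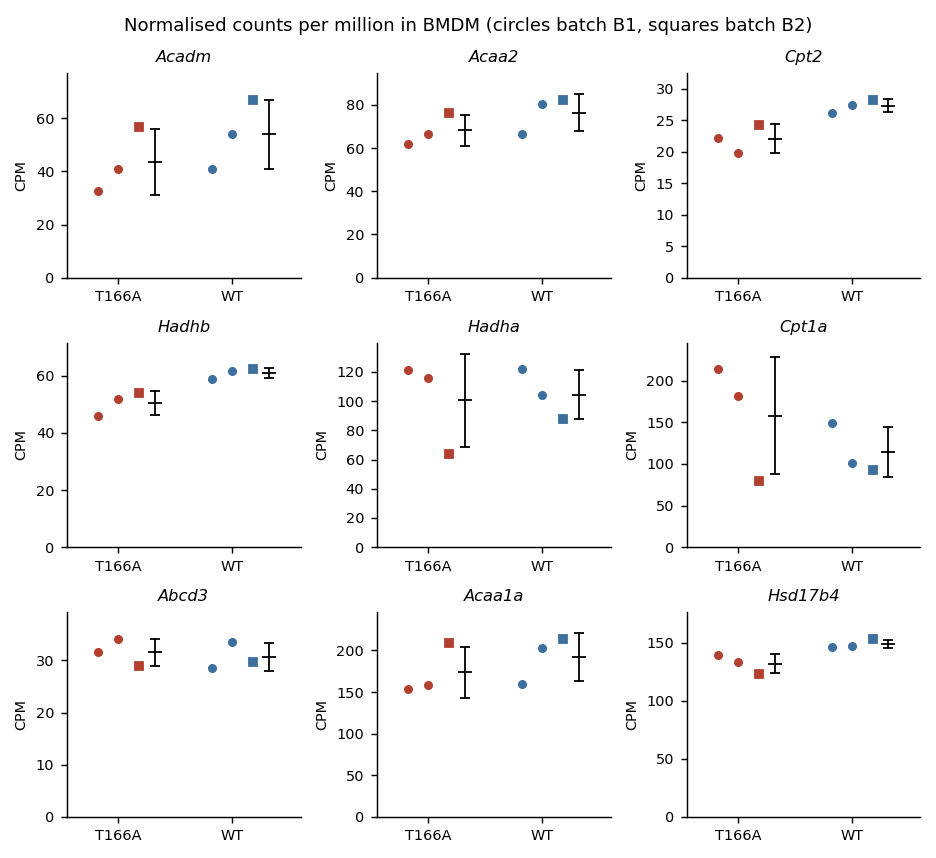
Normalised CPM in each BMDM library (points; T166A left, WT right; circles batch B1, squares batch B2) for 9 of the genes, with the mean and SD of 3 libraries as bars. T166A lies below WT in Cpt2, Hadhb and Hsd17b4, and in Cpt1a the 2 circles of T166A lie above all WT points while its square lies below them.

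Among the peroxisomal genes in BMDM, Acaa1a had 154, 158 and 209 CPM in T166A, against 159, 202 and 214 CPM in WT (log2 fold change -0.15, SE 0.13). Hsd17b4 had 139.7, 133 and 123 CPM in T166A BMDM, against 146, 147 and 153 CPM in WT BMDM. Abcd3, called higher in skin, had 31.6, 34.1 and 28.9 CPM in T166A BMDM, against 28.6, 33.6 and 29.6 CPM in WT BMDM, and its log2 fold change was 0.04 (edgeR adjusted p 0.927, SE 0.14). Ehhadh was low here too, at 3.72, 3.91 and 3.89 CPM in T166A BMDM, against 5.09, 2.57 and 3.64 CPM in WT BMDM.

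The genotype effect was then compared between the cell sources, as the log2 effect in skin minus that in BMDM, in a fit over all 18 libraries. The difference was above 0 in 15 of the 29 genes and below 0 in 0 by edgeR at an adjusted p of 0.05, against 6.16% above and 8.13% below over all 16586 genes tested. The 15 were 13 mitochondrial genes, Abcd3 and Eci2. Among these 15, the largest differences were 1.03 (edgeR adjusted p 0.00134, SE 0.19) for Acadm and 0.89 (edgeR adjusted p 0.00109, SE 0.16) for Cpt2. Acaa2, Hadhb and Echs1 followed with 0.80 (SE 0.16), 0.79 (SE 0.13) and 0.78 (SE 0.15), and Abcd3 was at the threshold (0.34, edgeR adjusted p 0.0498, SE 0.11). Ehhadh and Pex11a, both of low counts, had differences of 1.36 (SE 0.62) and 0.81 (SE 0.39) that did not pass (edgeR adjusted p 0.143 and 0.17). Cpt1a had a difference of -0.37 (edgeR adjusted p 0.165, SE 0.18), which passed the test without the BMDM batch B2 library of either genotype, at -0.63 in both cases. Where each source was fitted alone with its own spread, 5 genes passed, namely Acadm, Cpt2, Acaa2, Hadhb and Echs1, against 0.875% above and 1.58% below over 12692 genes tested. Leaving out BMDM T166A replicate 1 left 10 genes.

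Levels per kilobase of transcript ordered the genes differently in the sources. In BMDM, Acaa1a led at 98.6 CPM per kb in T166A and 109 CPM per kb in WT, followed by Etfb (60.8 in T166A, 77.7 in WT) and Hsd17b4 (49.2 in T166A, 55.5 in WT). In skin, Acadl led at 46.4 CPM per kb in T166A and 39.6 CPM per kb in WT, followed by Etfa (34.2 in T166A, 32.5 in WT) and Acaa1a (28.8 in T166A, 29.6 in WT). Ehhadh had the lowest mean in WT libraries of both sources, at 0.795 CPM per kb in T166A skin and 0.308 CPM per kb in WT skin, and at 1.29 CPM per kb in T166A BMDM and 1.26 CPM per kb in WT BMDM. In WT BMDM it lay within 1 SD of Acot1, ranked just above it at 1.89 CPM per kb in T166A and 1.67 CPM per kb in WT. In WT skin the level of Etfb lay within 1 SD of that of Acaa1a, ranked just above it, while Acadl and Etfa were further apart than that.

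Genes around the pathway were called in both directions in skin. Of 12 regulators tested, 4 were higher in T166A and 1 was lower. Ppara, the PPAR that drives fatty acid oxidation in liver, had 0.424, 0.997 and 2.23 CPM in T166A skin, against 0.0607, 0.186 and 0.384 CPM in WT skin, without overlap but under 1 CPM in every WT library (log2 fold change 2.47, edgeR adjusted p 0.000349, SE 0.47). Rxra, the dimer partner, had a log2 fold change of -0.28 (edgeR adjusted p 0.000873, SE 0.06). Pparg itself, which carries the mutation, averaged 24.5 ± 3.34 CPM in T166A skin and 28.0 ± 1.27 CPM in WT skin (SD, n = 6 each; log2 fold change -0.19, edgeR adjusted p 0.0778, SE 0.08). In BMDM it averaged 57.7 ± 3.12 CPM in T166A and 58.4 ± 3.55 CPM in WT (SD, n = 3 each; edgeR adjusted p 0.968), and a count per gene does not show the amino acid change.

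Of 11 uptake and activation genes tested in skin, 1 was higher and 2 were lower. Acsl1, which activates long-chain fatty acids to acyl-CoA, had 61.7, 65.0 and 71.7 CPM in T166A skin, against 42.3, 44.7 and 49.6 CPM in WT skin (log2 fold change 0.52, edgeR adjusted p 7.67e-07, SE 0.06). Fabp5, a fatty acid carrier, had a log2 fold change of -0.37 in skin (edgeR adjusted p 1.85e-05, SE 0.05). It was abundant in BMDM too, at 595 CPM on average in T166A and 604 CPM in WT. Of 16 other mitochondrial enzymes, 4 were higher and 0 lower, with log2 fold changes of 0.54 (SE 0.13) for Cpt1b and 0.28 (SE 0.07) for Acadsb, the dehydrogenase for short branched chains. Of 14 other peroxisomal enzymes, Hacl1, which shortens hydroxylated chains by 1 carbon, was the 1 that was higher (0.60, edgeR adjusted p 0.0133, SE 0.18), and 1 was lower. Of 15 peroxisome assembly genes, 1 was higher and 0 lower, namely Pex14, part of the import machinery (0.37, edgeR adjusted p 0.00177, SE 0.08), while Pex2 had 0.26 (edgeR adjusted p 0.0734, SE 0.10). In BMDM, edgeR called 0 genes of these 5 lists, and the smallest adjusted p of each belonged to Esrra (-0.34, SE 0.15), Acsl3 (0.68, SE 0.27), Mcee (-0.40, SE 0.18), Scp2 (-0.26, SE 0.14) and Pex7 (-0.34, SE 0.18). Ppara was at 0 in all 3 T166A BMDM libraries, against 0 to 0.13 CPM in WT BMDM.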

How the data were processed

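Per the submitters' processing notes, reads were checked with FastQC 0.12.1, trimmed with cutadapt 4.4, aligned to mm10 with HISAT2 2.2.1 and counted with featureCounts (strand and annotation: not given in the sources used here). Raw counts per transcript row were deposited by the authors, in 1 table per cell source. RefSeq rows were matched to gene symbols (45749 of 45895 rows in BMDM, 45697 of 45843 in skin, and 29 more in each through GENCODE); 117 unmatched rows, 0.514% of BMDM counts and 0.187% of skin counts, were left out. The row with the highest summed CPM stood for each gene.

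In R 4.3.3, counts were tested with edgeR 4.0.16 (filterByExpr with a minimum count of 10, TMM, robust quasi-likelihood fit), with batch as a term in BMDM and genotype alone in skin. The difference between sources used 4 groups and a batch B2 term. limma 3.58.1, DESeq2 1.42.0, other filters, scalings, covariates and leave-one-out fits were alternatives. Tests were first run on simulated data without a batch effect and with less spread between libraries than BMDM had. Those runs therefore do not show how many changes the BMDM test can find. Same-numbered BMDM libraries deviated together from their group means (correlations of 0.20, 0.11 and 0.19, all above 0.1). Batch was not removed from these deviations, and same-numbered BMDM libraries share a batch, so the correlations cannot tell pairing from batch. A BMDM fit with the replicate number as a block called 0 members too. The members, lists and alternatives were chosen with earlier results of these data known. Genes named are the 29 members, Pparg, the 2 genes with the smallest adjusted p in skin and the 1 in BMDM of each related list, and, of each cell type list, the most abundant gene plus Adipoq, Ucp1 and Cpt1b; the other genes named as at 0 or as sharing sequence were added after their values were seen. The values of 1 gene that this rule names are not reported here. Motifs were searched on both strands with exact letters, and sequence sharing used exact 50-base windows of GENCODE transcripts. The biological coefficient of variation was 0.133 in skin and 0.279 in BMDM.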

Additional observations from a re-analysis of the deposited data

Results flagged for a closer look

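In 2 of 58 groups of 6 skin libraries, a single library stood apart from the other 5 of its genotype, and chance flags about 1 in 20 such groups. They were T166A replicate 3 for Acadm, at 34.8 CPM, and T166A replicate 1 for Amacr, at 1.14 CPM. Without T166A replicate 3, Acadm was still called higher.

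The genotype effect differed between skin and BMDM in 15 genes, by a term for the difference over all 18 libraries in edgeR. As the log2 effect in skin minus that in BMDM, these differences were 1.03 for Acadm, 0.89 for Cpt2, 0.80 for Acaa2, 0.79 for Hadhb, 0.78 for Echs1, 0.66 for Decr1 and 0.62 for Etfb. They were 0.57 for Etfdh, 0.53 for Hadh, 0.50 for Acads, 0.47 for Etfa, 0.46 for Eci2, 0.40 for Acadl, 0.39 for Slc25a20 and 0.34 for Abcd3. Acads, Etfa, Hadh and Eci2 passed this test without being called in skin or in BMDM alone. Where each source was fitted alone with its own spread, only 5 members passed, namely Acadm, Cpt2, Acaa2, Hadhb and Echs1.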

How the results depend on the processing

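In skin, the count of members called higher was 13 to 15 with 1 library left out at a time and 12 to 20 over the other settings, except that it was 0 with the white adipocyte score and 0 with the skeletal muscle score as a covariate. The mitochondrial median was then 0.13 and 0.35, and the peroxisomal median 0.13 and -0.15; total count scaling gave a mitochondrial median of 0.31. In BMDM, 0 members were called under every setting run. After removal of the length trend, the BMDM peroxisomal median was -0.023 and the mitochondrial median -0.15, against -0.15 and -0.23 in the main fit. Of the 18 mitochondrial genes, 4 were then positive in BMDM, against 1 in the main fit. The difference between skin and BMDM was called higher in 5 members with separate fits and in 10 to 14 with 1 library left out, and lower in 0 to 1, the 1 being Cpt1a without replicate 3 of either BMDM genotype.

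With the replicate block, skin kept a count of 15, with Hadh gained (edgeR adjusted p 0.0426) and Ehhadh lost (edgeR adjusted p 0.0552), and all genes gave 2248 higher and 2301 lower calls. The correlations of same-numbered skin libraries were -0.05 to 0.09, so their numbers were not taken to pair them.

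Signs turned in skin for the called members Decr1 and Ehhadh and otherwise where a member was not called in that source, and the cause was not tested. In BMDM, Acadvl was 0.037, Eci1 0.19 and Acot2 0.042 after removal of the length trend; Eci1 was 0.024, Acot2 0.054 and Ehhadh -0.12 with limma-voom; Eci1 was 0.016 with total count scaling; Acot2 was 0.011 without the batch term; and in batch B1 alone Hadha was 0.073, Acot2 0.20, Ehhadh -0.00802 and Crat 0.11. In skin, total count scaling gave 0.049 for Cpt1a, 0.083 for Acot2, 0.023 for Hsd17b4 and 0.046 for Acaa1a. The white adipocyte score gave -0.15 for Hadh, -0.044 for Decr1 and -0.016 for Crat. The muscle score gave -0.0073 for Etfa, 0.16 for Acot2, -0.20 for Ehhadh, -0.21 for Pex11a and -0.060 for Eci2. Keratinocyte and fibroblast scores gave 0.021 for Cpt1a and 0.065 for Acot2, limma-voom gave 0.18 for Acot2 and -0.017 for Acot8, and the replicate block gave 0.025 for Acot2. With 1 library left out, BMDM values ran from -0.11 to 0.038 for Acadvl, -0.22 to 0.075 for Hadha, -0.056 to 0.036 for Eci1, -0.16 to 0.20 for Acot2, -0.028 to 0.090 for Abcd3, -0.21 to 0.37 for Ehhadh, -0.089 to 0.14 for Decr2, -0.15 to 0.11 for Crat and -0.043 to 0.40 for Acot1. Skin values ran from -0.16 to 0.091 for Acot2, -0.032 to 0.094 for Acot8 and -0.18 to 0.029 for Amacr, and the difference for Acot2 from -0.14 to 0.18.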

Other observations

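Counts of several members can include reads of other genes. Besides the genes named above, 7.19% of the 50-base windows of Eci2 recur in Eci3, 4.1% of those of Acadm in Gm5131 and 4.02% of those of Etfa in Gm15285. Exons of Acot8 share 12.3% of their bases with Snx21 on the opposite strand, and those of Acaa1a share 6.57% with Myd88. In 19 of the 29 members no 50-base window recurred in the transcript of another gene.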
